A study of Mus musculus with 36 samples.

Results

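The natriuretic peptide pathway was followed here through 7 genes in the hearts of CUG960 mice: the peptide genes Nppa and Nppb, the prohormone proteases Corin and Furin, and the receptors Npr1, Npr2 and Npr3. The members were chosen by their symbols, as the 7 rows of these names among the 55291 in the gene tables, and all 7 passed the low-count filter that left 19231 genes for testing. CUG960 is a mouse model of the heart disease of myotonic dystrophy type 1, in which an RNA with 960 CUG repeats is made in cardiomyocytes under doxycycline (dox). All animals had the genotype TREDT960I (Hom)/ MHCrtTA (Hem), so that in every group, controls included, the reverse tetracycline activator was driven by the cardiomyocyte α-MHC promoter. Mice in 6 cohorts of 3 animals each were compared at 21 weeks of age, with left ventricle and atria taken as separate samples, 36 libraries in all.

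The –dox mice never received dox and the +dox mice received it from postnatal day 1 to the end. The +/–dox mice received it from postnatal day 1 and were taken off it at 9 weeks. The MBNL1, MBNL2 and MBNL1+MBNL2 mice stayed on dox and were given AAV9 by tail vein at 9 weeks, which carried human MBNL1 cDNA, MBNL2 cDNA or both under the cardiomyocyte TNNT2 promoter. MBNL proteins are splicing regulators that expanded CUG RNA sequesters. None of the cohorts sequenced had received an AAV without MBNL, so an effect of the vector and an effect of MBNL cannot be told apart. In bulk tissue, fewer cells of a type and less RNA per cell cannot be told apart either.

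As background, Nppa encodes the precursor of atrial natriuretic peptide and Nppb that of brain natriuretic peptide, hormones that cardiomyocytes secrete when the wall is stretched. In the adult heart Nppa RNA is made mainly in atrial cardiomyocytes, and its return in ventricle is a classic marker of hypertrophy. Corin is the cell-surface protease that cuts the Nppa prohormone, and Furin is a Golgi proprotein convertase that cuts many precursors, among them the Nppb prohormone and the zymogens of other proteases. Npr1 and Npr2 are guanylyl cyclase receptors, Npr1 for the 2 cardiac peptides and Npr2 mainly for C-type natriuretic peptide, and Npr3 is the clearance receptor that removes the peptides.

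The summed expected counts of a library ran from 55031987 to 97091184, and each of the 7 genes had at least 903 counts in every library. Ventricular MBNL1 replicate 1 stood apart, with 16885 symbols above 0 against 20578 to 24041 in the other libraries. The numbers in the library names fall into separate runs, here called set A, with 20 libraries, and set B, with 16. What this split stands for is not given in the labels. Replicate 3 of each cohort other than MBNL1+MBNL2 was in set B, and these 10 libraries were the only ones with over 1000 counts of Xist, while all MBNL1+MBNL2 libraries were in set B and none passed that level. Library set and sex therefore cannot be told apart in those 5 cohorts, and values of set A alone are given beside some of the results. For MBNL1+MBNL2 no set A value exists, so its comparisons with other cohorts are unbalanced in library set and Xist. With library set as a term, the genes called in ventricle rose from 102 to 279 against +/–dox and from 5 to 83 against MBNL2. Reads assigned to mouse Mbnl1 were at 56.4 to 68.1 TPM in ventricular MBNL1 libraries against 44.9 to 54.7 TPM in +dox, and those assigned to Mbnl2 at 127 to 174 TPM in ventricular MBNL2 libraries against 93.4 to 108 TPM in +dox. In atria these ranges were 66.7 to 75.3 against 55.0 to 64.6 TPM for Mbnl1, and 142 to 168 against 134 to 137 TPM for Mbnl2. The vectors carried human cDNA while reads were mapped to the mouse genome, so these values are no measure of vector expression.

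Tissue identity was checked with marker lists. The 7 atrial cardiomyocyte markers (Myl7, Myl4, Sln, Bmp10, Dkk3, Stard10, Fgf12) summed to between 22401 and 29443 TPM in atrial libraries and to between 43.1 and 536 TPM in ventricular libraries. The 5 ventricular markers (Myl2, Myl3, Irx4, Hey2, Lrrc10) summed to 19918 to 27862 TPM in ventricle and 110 to 887 TPM in atria. In no group of libraries was a marker of either list at 0 throughout.

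Nppa (ENSMUSG00000041616.9) and Nppb (ENSMUSG00000029019.8) are neighbours on chromosome 4 of GRCm38, both on the plus strand, Nppb at 147985788-147987205 and Nppa at 148000722-148002079, with 13516 bases and no GENCODE M21 gene wholly between them. Corin (ENSMUSG00000005220.10) lies at chr5:72300025-72504473 and Furin (ENSMUSG00000030530.15) at chr7:80388585-80405436, both on the minus strand. Npr1 (ENSMUSG00000027931.12) lies at chr3:90450591-90465866, minus strand, Npr2 (ENSMUSG00000028469.15) at chr4:43631935-43651244, plus strand, and Npr3 (ENSMUSG00000022206.7) at chr15:11839896-11907287, minus strand. Genes on the opposite strand overlap all members but Nppb, and the largest count of such a gene was 3.94% of its partner's, for Gm12473 at Npr2. The kit was stranded, but whether the counting used strand is not given in the sources used here.

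Stretches before the RefSeq starts of the peptide genes are shown because these carried the most motif matches among the members, read from RefSeq (GRCm38.p6), plus strand, 5′ to 3′, with matches in capitals. Motifs were searched on both strands of the 250 bases before each RefSeq start. The GATA-factor motif was searched as TGATAA, and in a second form as AGATAA. The element bound by NKX2-5 was searched as TNAAGTG, and the T-box element, bound by TBX factors, as AGGTGTG. The M-CAT element, bound by TEAD factors, was searched as CATTCC, and the TATA box, the core promoter element, as TATAAA. The Nppa stretch is chr4:148000472-148000721, and the Nppb stretch is the 30 bases at chr4:147985792-147985821, which ends 79 bases before the RefSeq start. The Nppb stretch lies inside the gene as GENCODE M21 annotates it, and the 138 bases of the Nppb window that lie before every annotated start held no match.
Nppa: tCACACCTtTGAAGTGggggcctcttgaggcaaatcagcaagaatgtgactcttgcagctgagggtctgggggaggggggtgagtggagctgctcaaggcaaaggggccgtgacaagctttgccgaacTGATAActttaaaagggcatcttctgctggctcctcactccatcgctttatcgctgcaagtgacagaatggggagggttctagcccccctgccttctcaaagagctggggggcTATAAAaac
Nppb: gcaGGAATGcagcTGATAAatcagAGATAA
In Nppa the T-box match lay on the minus strand, followed by NKX2-5, GATA-factor and TATA box matches on the plus strand, none of which overlapped. In Nppb an M-CAT match on the minus strand was followed by a pair of GATA-factor matches on the plus strand, and a TATA box match lay past the end of the stretch shown. Of 32851 promoter windows of the same length, 16.6% held the GATA-factor motif, 10.1% that of NKX2-5, 5.10% the T-box, 12.6% the M-CAT and 12.4% the TATA box letters. The Furin window held 1 NKX2-5 and 1 TATA box match, the windows of Corin, Npr1, Npr2 and Npr3 held none, and a match is a description of letters only.

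Atrial libraries held between 17827 and 40236 TPM of Nppa (a level corrected for transcript length and scaled to a common sum), 0.772% to 1.73% of all counts, whereas ventricular libraries held between 70.3 and 550 TPM. In each of the 18 animals the atrial level was higher, by 58.6 to 424 times, with a median of 134. Nppb showed no such gap, at 99.2 to 413 TPM in atria and 55.3 to 240 TPM in ventricle. In TPM its atrial level was still the higher one in 17 of the 18 animals, with ratios of 0.941 to 4.45 and a median of 2.44.

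The atrial Nppa level was lowest in +dox. The +dox atria held 19865, 17827 and 19380 TPM in replicates 1, 2 and 3. The –dox atria held 29847, 33342 and 34618 TPM, and the +/–dox atria held 30861, 32910 and 34814 TPM. Both untreated and withdrawn groups thus lay wholly above +dox, while they overlapped each other.

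With MBNL1 the atria held 25250, 28194 and 26664 TPM of Nppa, and with MBNL2 28322, 25888 and 19991 TPM. With both, they held 23143, 28556 and 40236 TPM, the last of which was the highest of all 18 atrial libraries. All 3 vector groups lay above the +dox range, MBNL2 replicate 3 by the smallest margin, and in CPM the MBNL2 group overlapped +dox.

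Tests were made by edgeR's quasi-likelihood test on the counts of all 36 libraries, with Benjamini-Hochberg adjustment over all genes, and a gene was called at an adjusted p below 0.05 with a change of at least 1.5-fold. In that fit atrial Nppa was 1.75-fold higher in –dox than in +dox (log2 0.81 ± 0.50 SE, n = 3 per group, adjusted p = 0.301) and 1.81-fold higher in +/–dox (0.86 ± 0.50, adjusted p = 0.299), and neither was called. When edgeR was fitted to the 18 atrial libraries alone, the standard error was 0.16, the log2 differences were 0.80 and 0.84, and both were called (adjusted p = 0.00205 and 0.00177). A fit of only the 6 libraries compared called both too (adjusted p = 0.000485 and 0.00029). The call on atrial Nppa therefore depended on whether the ventricular libraries entered the fit. Against +dox, the atrial fit gave log2 differences of 0.66 for MBNL1+MBNL2 (adjusted p = 0.0602), 0.48 for MBNL1 (0.219) and 0.42 for MBNL2 (0.638), none of them called.

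Nppb in atria also had its lowest mean in +dox, with a wider spread, but the order of the other cohorts differed. Its +/–dox mean of 203 TPM lay below those of MBNL1 (254 TPM) and MBNL1+MBNL2 (305 TPM), whereas for Nppa +/–dox had the highest mean. Its +dox values were 170, 99.2 and 155 TPM, against 342, 391 and 255 TPM in –dox. Nppb was 2.40-fold higher in –dox atria (log2 1.26 ± 0.37, edgeR adjusted p = 0.0198) and was called. Without +dox replicate 2, –dox replicate 1 or –dox replicate 2 it was not called (adjusted p = 0.106, 0.0511 and 0.0768), nor in set A alone, where the log2 difference was 1.47 (adjusted p = 0.0576).

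The +/–dox atria held 215, 199 and 196 TPM of Nppb, above every +dox library and below every –dox library. Neither difference was called by edgeR (log2 0.60 ± 0.37 against +dox, adjusted p = 0.33). With MBNL1+MBNL2 the values were 193, 309 and 413 TPM (log2 1.09 ± 0.37, adjusted p = 0.242), with MBNL1 204, 276 and 283 TPM (0.84 ± 0.37, adjusted p = 0.549), and with MBNL2 249, 133 and 183 TPM (0.44 ± 0.36). Only the MBNL2 values among these overlapped the +dox range.

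**Figure D1:**
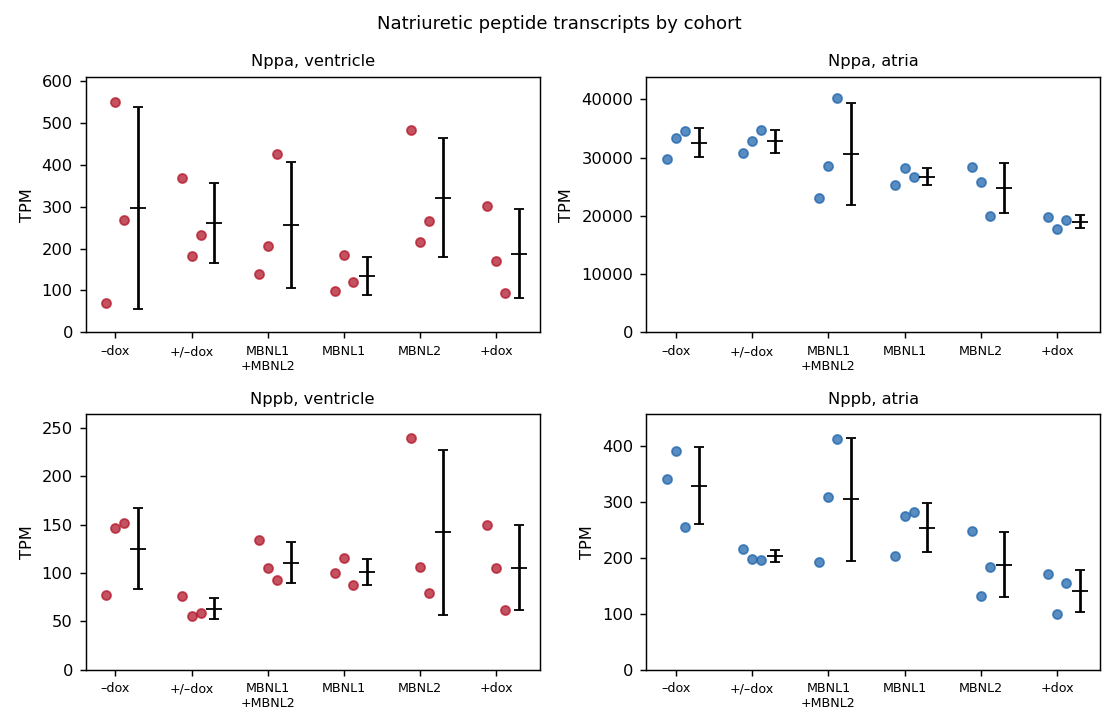
Nppa and Nppb levels in TPM (vertical axes, linear, from 0) for the 6 cohorts in ventricle (left) and atria (right), with 1 point per library, the mean as a short line and the SD as error bars (n = 3). Atrial Nppa in +dox (17827 to 19865 TPM) lay below every other cohort, while ventricular cohorts overlapped, with –dox spanning 70.3 to 550 TPM.

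In ventricle the peptide genes varied as much within cohorts as between them. Ventricular Nppa was at 301, 169 and 93.4 TPM in +dox, and at 70.3, 550 and 269 TPM in –dox. The lowest and the highest of the 18 ventricular libraries were thus both –dox replicates. The +/–dox values were 368, 181 and 233 TPM. With MBNL1 they were 99.4, 185 and 120 TPM, with MBNL2 483, 215 and 266 TPM, and with both 139, 205 and 424 TPM. Every group overlapped +dox, and edgeR called no difference against +dox (adjusted p = 0.355 for –dox, log2 0.71 ± 0.50, and 0.502 to 0.675 for the other groups).

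Ventricular Nppb was at 149, 105 and 62.0 TPM in +dox and at 77.0, 147 and 152 TPM in –dox. The lowest group was +/–dox, at 75.8, 55.3 and 58.5 TPM, which lay below every –dox library and overlapped +dox. The difference between –dox and +/–dox was log2 1.00 ± 0.37 by edgeR (adjusted p = 0.467) and was not called. With MBNL1 the values were 100, 115 and 87.8 TPM, with MBNL2 240, 107 and 79.7 TPM, and with both 134, 105 and 92.9 TPM, all 3 groups above +/–dox in TPM, although MBNL2 overlapped it in CPM, and none of them called against it (adjusted p = 0.125 to 0.386).

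Atrial markers moved with ventricular Nppa. The summed level of the 7 atrial markers was 204, 348 and 56.3 TPM in the +dox ventricles, and 43.1, 499 and 227 TPM in –dox, so that –dox replicates 1 and 2 were the extremes of their group for markers and Nppa alike. Relative to the atrial mean of the same cohort, ventricular Myl7 was at 0.0764% to 2.10%, Myl4 at 0.0993% to 2.10%, Sln at 0.131% to 2.01%, Bmp10 at 0.0940% to 0.570%, Dkk3 at 0.218% to 4.70%, Stard10 at 2.24% to 6.82% and Fgf12 at 0.243% to 2.89%. Ventricular Nppa was at 0.216% to 1.95% on the same scale, and Nppb at 23.4% to 127%.

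As deviations from cohort means, in log2 CPM (counts scaled to library size), ventricular Nppa and the mean of the atrial markers correlated with Pearson's r = 0.79 and Spearman's rho = 0.71 over 18 libraries (permutation test within cohorts, two-sided, p = 0.00703 and 0.0127, adjusted over 6 relations 0.0344 and 0.0760). Without the 2 libraries with the most extreme marker deviations from the cohort mean, r was 0.70 (permutation p = 0.0285, adjusted 0.117), so the adjusted call rested on those libraries. For Nppb the same relation gave r = 0.44 and rho = 0.29 (permutation p = 0.211 and 0.359, adjusted 0.254 and 0.431), and r = 0.28 without the 2 libraries. The part of atrial tissue in the ventricular Nppa values was not tested.

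The other 4 relations joined the peptides to each other and the chambers to each other. Nppa and Nppb correlated in ventricle with r = 0.65 and rho = 0.57 (permutation p = 0.0172 and 0.0544, adjusted 0.0344 and 0.109). The value was r = 0.59 (adjusted permutation p = 0.117) without the 2 libraries whose Nppa deviations from the cohort mean lay farthest from their median. In atria r was 0.61 and rho 0.62 (permutation p = 0.0890 and 0.0402, adjusted 0.133 and 0.109), and r was 0.36 without the 2 farthest there. Across same-numbered samples, ventricular and atrial Nppa gave r = 0.54 and rho = 0.50 (permutation p = 0.0169 and 0.0758, adjusted 0.0344 and 0.114), and r = 0.62 with an adjusted permutation p of 0.117 without the 2 farthest. For Nppb the chambers gave r = 0.12 and rho = 0.090 (permutation p = 0.719 and 0.783, both also after adjustment), and r = -0.044 without the 2 farthest.

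**Figure D2:**
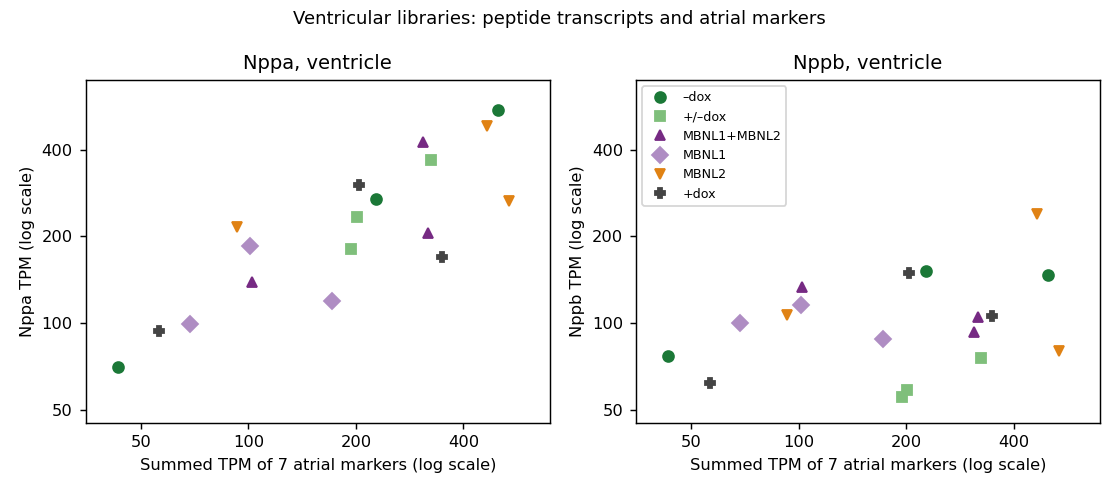
Ventricular Nppa (left) and Nppb (right) in TPM against the summed TPM of 7 atrial markers, both axes logarithmic, with 1 point per library and a symbol per cohort (18 libraries). Nppa tended to be higher where the summed markers were, from –dox replicate 1 (43.1 TPM of markers, 70.3 TPM of Nppa) to –dox replicate 2 (499 and 550 TPM). Not all libraries kept this order, as +dox replicate 2 exceeded replicate 1 in markers (348 against 204 TPM) but not in Nppa (169 against 301 TPM). Nppb showed a looser relation.

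Corin was about 2-fold higher without dox in both chambers. In +dox ventricle it was at 19.5, 22.6 and 30.4 TPM, against 50.1, 45.9 and 53.8 TPM in –dox and 51.4, 44.5 and 43.6 TPM in +/–dox. All 6 dox-free libraries lay above all +dox libraries. Corin was 2.16-fold higher in –dox (log2 1.11 ± 0.13, edgeR adjusted p = 5.72e-07) and 1.97-fold higher in +/–dox ventricle (0.97 ± 0.13, adjusted p = 5.07e-06). In set A the log2 differences were 1.24 and 1.20.

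The atria showed the same step from a higher level. Atrial Corin was at 61.0, 77.5 and 70.7 TPM in +dox, against 128, 135 and 148 TPM in –dox and 127, 128 and 128 TPM in +/–dox. The folds were 2.03 (log2 1.02 ± 0.13, edgeR adjusted p = 2.77e-06) and 1.91 (0.93 ± 0.13, adjusted p = 1.40e-05). Their difference between the chambers was log2 -0.088 ± 0.19 for –dox and -0.042 ± 0.19 for +/–dox, neither of which was called (adjusted p = 0.938 and 0.964).

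With MBNL1 and with MBNL1+MBNL2, mean ventricular Corin lay between the +dox and +/–dox means, while with MBNL2 it was close to +dox. Ventricular values were 44.8, 40.3 and 25.4 TPM with MBNL1+MBNL2, 38.2, 27.9 and 36.8 TPM with MBNL1, and 27.9, 24.1 and 28.8 TPM with MBNL2. The MBNL2 values sat within the +dox range (log2 0.025 ± 0.13 by edgeR, adjusted p = 0.943) and below every +/–dox library (log2 -0.95 ± 0.13, adjusted p = 5.22e-05, called). MBNL1 was log2 0.47 ± 0.13 above +dox (adjusted p = 0.0231) and MBNL1+MBNL2 0.55 ± 0.13 (adjusted p = 0.00798), changes below the 1.5-fold limit of a call.

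For MBNL1+MBNL2 the change was called without replicate 3 of that group or of +dox (log2 0.74 and 0.69, edgeR). For MBNL1 it was called without MBNL1 replicate 2 (0.59), without +dox replicate 3 (0.61) and in set A (0.62). In the fit of 18 ventricular libraries the adjusted p was 0.123 for MBNL1 and 0.0735 for MBNL1+MBNL2. The differences between vectors were not called in ventricle: MBNL1 against MBNL2 gave log2 0.45 ± 0.13 (adjusted p = 0.266), and MBNL1+MBNL2 against MBNL2 0.53 ± 0.13 (adjusted p = 0.155), called only without MBNL1+MBNL2 replicate 3 (log2 0.71, adjusted p = 0.00989). Against +/–dox, Corin was lower by 0.50 with MBNL1 and by 0.42 with MBNL1+MBNL2 on the log2 scale, neither of them called. The MBNL1 difference was called when its replicate 1 was left out (-0.62) and in set A (-0.59, adjusted p = 0.0476), and the MBNL1+MBNL2 one when its replicate 1 was left out (-0.59).

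Atrial Corin was at 107, 110 and 104 TPM with MBNL1+MBNL2, 92.1, 94.7 and 109 TPM with MBNL1, and 82.4, 72.3 and 87.7 TPM with MBNL2. The first 2 groups lay above +dox and below +/–dox without overlap, and MBNL2 overlapped +dox. Log2 differences from +dox were 0.57 ± 0.13 (edgeR adjusted p = 0.0343), 0.49 ± 0.13 (0.124) and 0.24 ± 0.13 (adjusted p = 1.00), none past 1.5-fold. Against +/–dox the MBNL2 atria were lower by 0.69 on the log2 scale (± 0.13, adjusted p = 0.000796, called), while MBNL1 (-0.45) and MBNL1+MBNL2 (-0.36) were not called.

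Furin moved in the other direction, and mainly in atria. The +dox atria held 113, 117 and 108 TPM of Furin, against 62.1, 56.2 and 66.1 TPM in –dox and 62.4, 61.0 and 65.2 TPM in +/–dox. The 6 dox-free libraries formed a narrow range far below +dox. Furin was 1.80-fold lower in –dox (log2 -0.85 ± 0.11, edgeR adjusted p = 8.80e-07) and 1.72-fold lower in +/–dox (-0.79 ± 0.11, adjusted p = 3.80e-06).

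In ventricle Furin was at 45.9, 47.4 and 38.2 TPM in +dox, 31.7, 30.3 and 42.9 TPM in –dox, and 38.5, 38.6 and 42.1 TPM in +/–dox. These ranges overlapped, and log2 differences were -0.30 ± 0.10 (edgeR adjusted p = 0.0363, below 1.5-fold) and -0.14 ± 0.10 (adjusted p = 0.381). In set A alone the ventricular –dox difference was -0.55. The atrial change exceeded the ventricular one by log2 -0.65 ± 0.15 for +/–dox (adjusted p = 0.0343) and by -0.54 ± 0.15 for –dox (adjusted p = 0.0674). With the animal as a block across its 2 chambers both differences passed (adjusted p = 0.00907 and 0.0221). Without 1 library, the +/–dox difference stayed below 0.05 only when ventricular +dox replicate 1 or 2 or atrial +dox replicate 3 was the one left out, with log2 values of -0.75 to -0.52 over the 12 fits. The –dox difference was below 0.05 without ventricular +dox replicate 2, ventricular –dox replicate 2 or atrial +dox replicate 3, and was -0.38 in set A (adjusted p = 0.0314).

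Furin in atria with MBNL was close to +dox: 88.6, 106 and 102 TPM with MBNL1+MBNL2, 106, 95.2 and 92.7 TPM with MBNL1, and 101, 99.5 and 102 TPM with MBNL2. All 9 values were above every dox-free value, and below the lowest +dox value of 108 TPM, but on the TMM-scaled CPM scale each of the 3 vector groups overlapped +dox. Differences from +dox were log2 -0.25, -0.21 and -0.13 in that order, none called (edgeR adjusted p = 0.405, 0.627 and 1.00). Against +/–dox they were 0.54 ± 0.10, 0.57 ± 0.10 and 0.65 ± 0.10, and only the last passed 1.5-fold and was called (adjusted p = 8.99e-05). The MBNL1 difference was called without MBNL1 replicate 3 (0.65), without +/–dox replicate 2 (0.61) and in set A (0.65), and the MBNL1+MBNL2 one without its replicate 1 (0.60). Ventricular Furin with MBNL was at 38.4 to 57.8 TPM, with no call against +dox.

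**Figure D3:**
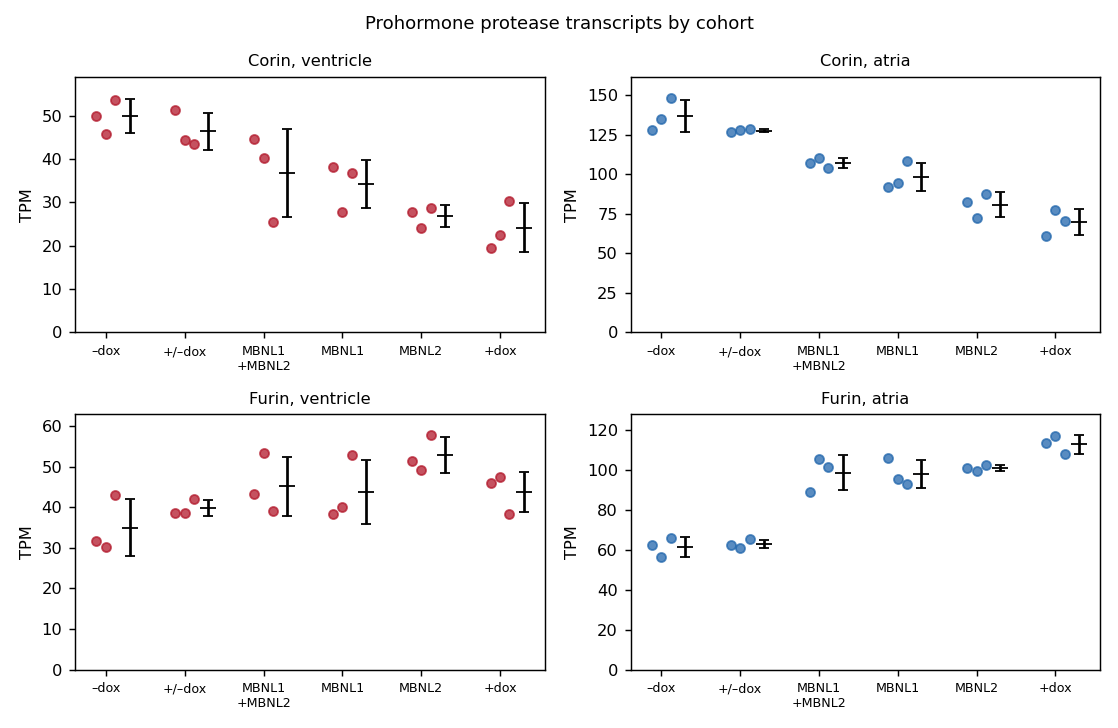
Corin and Furin levels in TPM (vertical axes, linear, from 0) for the 6 cohorts in ventricle (left) and atria (right), with 1 point per library, the mean as a short line and the SD as error bars (n = 3). Atrial Corin in +dox (61.0 to 77.5 TPM) lay below both dox-free cohorts (127 to 148 TPM), and atrial Furin in +dox (108 to 117 TPM) above them (56.2 to 66.1 TPM).

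Npr2 rose in both chambers without dox. Ventricular Npr2 was at 12.5, 12.2 and 12.8 TPM in +dox, a narrow range, against 18.5, 18.9 and 24.3 TPM in –dox and 21.0, 20.9 and 22.0 TPM in +/–dox. Log2 differences were 0.75 ± 0.10 (1.68-fold, edgeR adjusted p = 2.00e-06) and 0.77 ± 0.10 (1.71-fold, adjusted p = 1.42e-06), both called. Every ventricular MBNL library, at 15.9 to 24.1 TPM, also lay above +dox. The log2 differences were 0.59 ± 0.10 with MBNL1 (adjusted p = 0.000372, called), 0.57 ± 0.10 with MBNL1+MBNL2 (1.49-fold, adjusted p = 0.000323) and 0.47 ± 0.10 with MBNL2 (1.38-fold, adjusted p = 0.00452), the last 2 below the fold limit. The MBNL1 call fell below the limit without MBNL1 replicate 2 or 3 or +dox replicate 3, with log2 values of 0.56, and in set A (0.53). MBNL1+MBNL2 passed it in the fit of 18 ventricular libraries (0.59) and without +dox replicate 2 or its own replicate 2 or 3 (0.60 to 0.68).

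Atrial Npr2 was at 19.2, 21.7 and 25.2 TPM in +dox, 29.6, 29.99 and 37.5 TPM in –dox, and 30.8, 30.2 and 34.2 TPM in +/–dox. Both differences were log2 0.59 ± 0.10 (edgeR adjusted p = 8.14e-05 and 0.000112) and stood at the 1.5-fold limit, with folds of 1.50. Of 15 alternatives 9 fell below the limit in each case, among them the 18-library fit (0.57) and the fits without +dox replicate 1 or 2. Leaving out –dox replicate 3 (0.52) or +/–dox replicate 2 or 3 (0.56 and 0.57) also took the respective value below it, without a change of direction. The vector groups gave 0.42 with MBNL1 (adjusted p = 0.0462), 0.38 with MBNL1+MBNL2 (adjusted p = 0.0705) and 0.18 with MBNL2 (adjusted p = 1.00).

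Npr1 had the lowest mean TPM of the members in every group. Its ventricular values were 3.53, 4.24 and 4.33 TPM in +dox, 5.92, 5.15 and 7.30 TPM in –dox and 5.54, 5.66 and 5.88 TPM in +/–dox, without overlap with +dox. The –dox difference was called (log2 0.63 ± 0.12, 1.54-fold, edgeR adjusted p = 0.00029) and the +/–dox one was below 1.5-fold (0.50 ± 0.12, adjusted p = 0.00291). The –dox call was lost to the fold limit without +dox replicate 1 or –dox replicate 3, in set A (0.54) and in limma on log2(TPM + 1) (0.49). In atria the log2 differences were 0.57 ± 0.12 (adjusted p = 0.000996) and 0.36 ± 0.12 (adjusted p = 0.0441), neither past 1.5-fold, although the first was called without –dox replicate 1 or 2 (0.64 each).

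Endothelial markers were summed beside Npr1. Of the 5, edgeR called 1 in –dox ventricle (Tie1, higher, where 3.47% of all genes were called higher) and 0 in +/–dox ventricle, with median log2 differences of 0.49 and 0.39. The markers Pecam1, Cdh5, Kdr, Tie1 and Tek summed to 148 to 161 TPM in +dox ventricles, 185 to 235 TPM in –dox and 192 to 212 TPM in +/–dox. In the vector groups they summed to 161 to 208 TPM, and Npr1 was at 3.98 to 6.37 TPM there. In atria the sums were 185 to 207 TPM in +dox and 229 to 279 TPM in –dox. Their part in the Npr1 result was not tested.

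Npr3 changed in ventricle. It was at 14.9, 10.9 and 9.02 TPM in +dox, 7.24, 6.53 and 5.96 TPM in +/–dox and 6.78, 10.6 and 6.62 TPM in –dox. It was 1.83-fold lower in +/–dox (log2 -0.88 ± 0.20, edgeR adjusted p = 0.00247, called). In –dox the difference was -0.56 ± 0.20 (adjusted p = 0.0478, below 1.5-fold), and the –dox and +dox ranges overlapped. It was called without +dox replicate 3 (-0.75) or –dox replicate 2 (-0.85). The vector groups held 8.45 to 14.3 TPM, all above +/–dox, and MBNL1+MBNL2 was called against it (0.78 ± 0.20, adjusted p = 0.0416). That call was lost in 9 of 14 alternatives, among them the fit of 18 ventricular libraries (adjusted p = 0.239) and every fit without 1 library except the one without MBNL1+MBNL2 replicate 1. MBNL2 was called against +/–dox without its replicate 3 (0.80), in set A (0.75), with library set as a term (0.61), by DESeq2 (0.63, adjusted p = 0.0136) and by limma (0.63, adjusted p = 0.0200), but not by the edgeR fit of all 36 libraries without that term (0.62, adjusted p = 0.0686).

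In atria Npr3 lay between 67.9 and 103 TPM over all 18 libraries. Its log2 differences from +dox ran from -0.23 with MBNL2 to 0.092 in –dox, with no call. The difference between chambers was 0.68 ± 0.28 for +/–dox (edgeR adjusted p = 0.287) and 0.65 ± 0.28 for –dox (adjusted p = 0.37), and neither was called. The 5 endocardial markers (Cytl1, Cdh11, Plvap, Vwf, Tmem100) summed to 12.5 to 28.5 TPM in +dox ventricles, 24.5 to 29.9 TPM in +/–dox and 23.3 to 29.6 TPM in –dox, and to 175 to 321 TPM in atria.

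**Figure D4:**
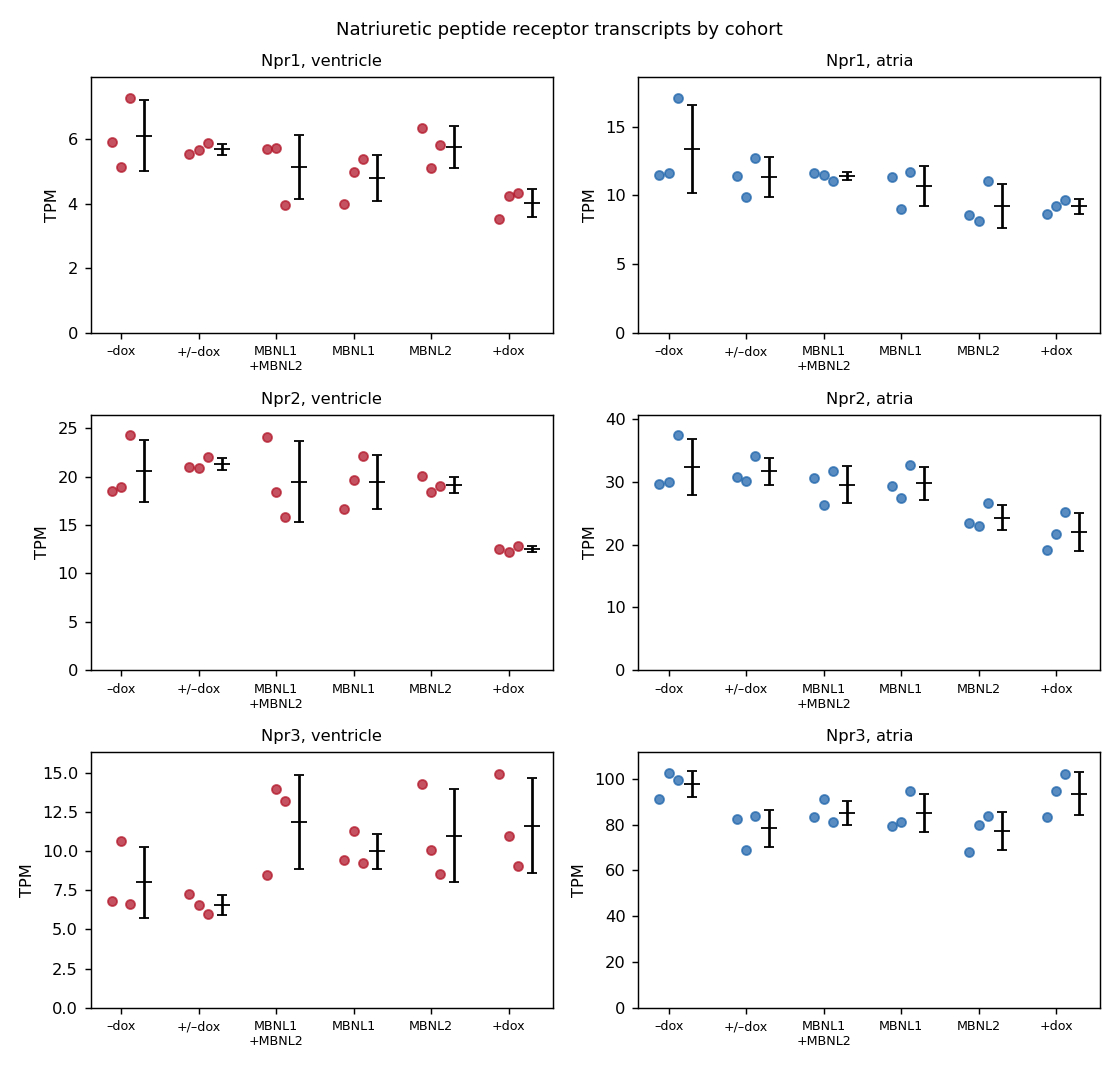
Npr1, Npr2 and Npr3 levels in TPM (vertical axes, linear, from 0) for the 6 cohorts in ventricle (left) and atria (right), with 1 point per library, the mean as a short line and the SD as error bars (n = 3). Ventricular Npr2 in +dox (12.2 to 12.8 TPM) lay below every other ventricular library, and ventricular Npr3 was lowest in +/–dox (5.96 to 7.24 TPM).

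Counted over the members, edgeR called 3 of 7 in ventricle for –dox against +dox, all higher, where 7.6% of all genes tested were called. For +/–dox it called 3 (2 higher, 1 lower), with 6.6% of all genes. In atria it called 4 for –dox (3 higher, 1 lower) against 5.23% of all genes, and 3 for +/–dox (2 higher, 1 lower) against 3.99%. The median log2 difference of the 7 members was 0.63 and 0.50 in ventricle and 0.59 and 0.59 in atria, where the median of all genes was between 0.00099 and 0.027. These 4 comparisons share the +dox libraries within a chamber.

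Few members were called with the vectors. In ventricle the count against +dox was 1 of 7 with MBNL1 (2.66% of all genes), and 0 with MBNL2 (1.52%) and with MBNL1+MBNL2 (2.65%). By unadjusted p 2 members lay below 0.05 with MBNL2 and 3 with MBNL1+MBNL2, and DESeq2 called 0 (1.27% of all genes) and 1 (1.94%). In atria edgeR called 0 with MBNL1 (0.13% of all genes), MBNL2 (0.0052%) and MBNL1+MBNL2 (0.26%). There 4, 0 and 5 members had an unadjusted p below 0.05, and DESeq2 called 0 in each (0.162%, 0.027% and 0.303% of all genes). The percentages here and below are shares of all genes called by edgeR, or by DESeq2 where it is named. They are no background for the counts by unadjusted p, for which the share of all genes is not given, so nothing is read from those counts.

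Between the dox-free groups, –dox against +/–dox, edgeR called 0 members in ventricle (0.0312% of all genes, 1 member below an unadjusted p of 0.05) and 0 in atria (0.0104%, 0 members). DESeq2 called 0 in both (0.0689% and 0.057% of all genes). Against +/–dox, the ventricular count was 0 with MBNL1 (0.868% of all genes, 3 members below an unadjusted p of 0.05), 1 with MBNL2 (1.57%) and 1 with MBNL1+MBNL2 (0.53%). For MBNL1 there DESeq2 called 0 (0.851% of all genes). The atrial count was 0 with MBNL1 (1.21%, 2 members below an unadjusted p of 0.05), 2 with MBNL2 (3.24%) and 0 with MBNL1+MBNL2 (1.71%, 3 members below). In atria DESeq2 called 0 for MBNL1 and MBNL1+MBNL2 (0.968% and 1.39% of all genes).

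Among the vectors edgeR called 0 members in each of the 6 comparisons. The share of all genes was 0.0156% for MBNL1 against MBNL2 in ventricle and 0.0052% in atria, 0% for MBNL1+MBNL2 against MBNL1 in both, and 0.026% and 0.0104% for MBNL1+MBNL2 against MBNL2. By unadjusted p below 0.05, for which no share of all genes is given, there were 2, 0 and 1 members in ventricle and 1, 0 and 2 in atria, in that order of comparisons. DESeq2 called 0 in all 6, with 0% to 0.0929% of all genes.

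**Figure D5:**
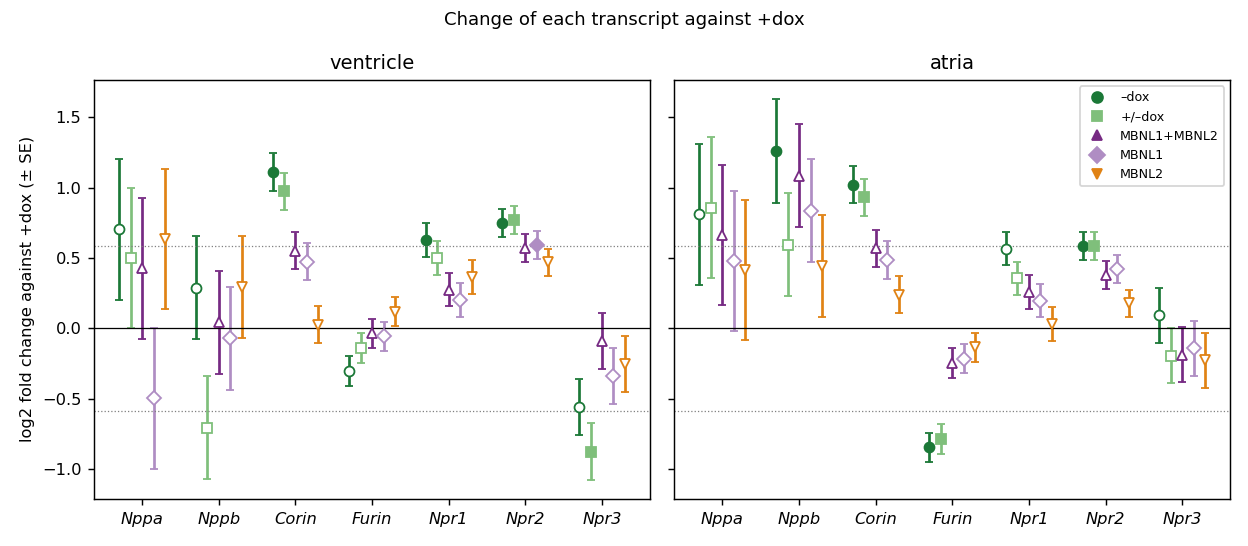
Log2 fold change against +dox (vertical axis, ± SE, edgeR) of the 7 genes for 5 cohorts in ventricle (left) and atria (right), with filled symbols where the change was called and dotted lines at 1.5-fold. Corin and Npr2 were above 0 in all 10 comparisons, and Furin in atria was at -0.85 in –dox and -0.79 in +/–dox.

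The chambers themselves were compared in –dox and +dox hearts. The fit of these differences had no term for the animal, although both chambers came from the same animals. The calls of Nppa, Npr3 and Corin given here held in all 14 alternatives, among them the animal as a block. TPM and TMM-normalized counts place the chambers on different scales, as the median over genes of the log2 ratio of atria to ventricle was 0.54 higher by TPM than by TMM, so differences are given on the TMM scale. Nppa was 75.2-fold higher in –dox atria (log2 6.23 ± 0.62, edgeR adjusted p = 7.63e-09) and 69.9-fold in +dox atria (6.13 ± 0.62, adjusted p = 9.58e-09). Npr3, the clearance receptor, was higher by 3.06 ± 0.21 in –dox and by 2.41 ± 0.21 in +dox (adjusted p = 4.16e-12 and 2.57e-10). Corin was higher by 0.91 ± 0.13 and 1.00 ± 0.13 (adjusted p = 1.49e-06 and 3.35e-07).

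Furin was called between chambers in +dox only, at 0.82 ± 0.11 against 0.28 ± 0.10 in –dox, the difference between these 2 values being the one tested above. Npr1 was called in +dox (0.64 ± 0.12, but 0.56 and not called without ventricular +dox replicate 1) and was just below the fold limit in –dox (0.58 ± 0.12). It was called in –dox without ventricular replicate 3 or atrial replicate 1 or 2 (0.65 to 0.67), and Nppb without atrial replicate 3 (1.05). Npr2 was not called in either (0.11 and 0.27), nor was Nppb (log2 0.87 ± 0.37 in –dox, adjusted p = 0.0603, and -0.11 ± 0.36 in +dox, adjusted p = 0.844). Thus 3 of 7 members were called in –dox, where 24.9% of all genes were, and 5 in +dox, where 25% were, all higher in atria. By limma on log2(TPM + 1), on the TPM scale, 7 were called in –dox, where 27.2% of all genes were called higher in atria and 2.74% lower, and 6 in +dox, where 26.9% and 2.84% were.

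Tests of whether a change against +dox differed between chambers called 0 members for –dox (1.03% of all genes, 2 members below an unadjusted p of 0.05) and 1 for +/–dox (0.692%), which was Furin. DESeq2 called 1 in each (1.28% and 1.16% of all genes). For MBNL1 (0.0312% of all genes), MBNL2 (0.0364%) and MBNL1+MBNL2 (0.0728%) edgeR and DESeq2 called 0, with 0, 1 and 0 members below an unadjusted p of 0.05. The DESeq2 shares of all genes were 0.0809%, 0.378% and 0.234%.

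Other genes of the pathway were described from a list. Its 54 genes were other ligands, processing and breakdown enzymes, cGMP effectors and phosphodiesterases, secretory granule genes, transcription factors of the peptide genes, and load genes, and 49 were tested. In ventricle edgeR called 2 of the 49 in –dox, both lower, where 3.47% of all genes were called higher and 4.13% lower. In +/–dox it called 2 higher and 1 lower, where 3.09% and 3.52% of all genes were called. In atria it called 5 higher and 1 lower in –dox, where 2.83% and 2.4% of all genes were called, and 2 in +/–dox, both higher, where 2.01% and 1.98% were.

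Of 13 cGMP genes, Prkg2, a membrane-bound cGMP-dependent kinase, was at 0.907 ± 0.093 TPM (SD, n = 3) in +dox ventricle and 0.150 ± 0.026 TPM in –dox (log2 -2.31 ± 0.41, edgeR adjusted p = 0.000133). It was also lower in +/–dox (-1.77 ± 0.40), MBNL1 (-1.40 ± 0.39) and MBNL1+MBNL2 ventricle (-1.25 ± 0.39), all called, at levels under 1 TPM. Mrvi1, a substrate of cGMP-dependent kinase I, fell in –dox atria from 72.4 ± 7.2 TPM in +dox to 36.02 ± 3.3 TPM (log2 -0.97 ± 0.15, adjusted p = 2.3e-05). It was at 47.4 ± 8.5 TPM with MBNL1+MBNL2 (-0.67 ± 0.14, adjusted p = 0.0207, called).

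Rgs2, a regulator of G-protein signalling, was higher in –dox and +/–dox atria (log2 0.60 ± 0.12 and 0.62 ± 0.12 by edgeR), and Pde5a, which breaks down cGMP, in –dox atria (0.59 ± 0.12). Pde9a, a phosphodiesterase selective for cGMP, was higher in +/–dox atria (0.67 ± 0.15) and in ventricle with MBNL1 (0.83 ± 0.16) and MBNL2 (0.66 ± 0.16).

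Of 7 tested processing and breakdown enzymes Mme, which encodes neprilysin, was called in –dox atria (4.10 ± 0.34 TPM against 2.65 ± 0.57 in +dox, log2 0.73 ± 0.16, edgeR adjusted p = 0.00204). Of 5 granule genes Scg5 was called lower in –dox ventricle, but it was listed at 0 in all –dox libraries and at 0.0433 ± 0.021 TPM in +dox. Of 16 transcription factors, Tbx2 (0.73 ± 0.22) and Nfatc4 (0.67 ± 0.17) were higher in +/–dox ventricle, Nfatc4 in ventricle with MBNL1 (0.72 ± 0.17), both in ventricle with MBNL2 (0.71 ± 0.22 and 0.64 ± 0.17), and Tbx3 (0.70 ± 0.17) in –dox atria. Of 7 load genes Ccn2, a matrix protein gene, was higher in –dox atria (318 ± 129 TPM against 127 ± 35, log2 1.34 ± 0.32, adjusted p = 0.00424). Among ligands, Nppc was not tested, at 0.087 TPM or less in the means of –dox, +/–dox and +dox, and Ostn was tested and not called against +dox by either dox-free group.

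The genes with the pattern most like each member were found by Pearson's r of log2 CPM over the 18 libraries of a chamber, which share cohorts and depth. Ventricular Nppa was most like Myl4 (r = 0.84) and Sln (0.83), both of the atrial marker list. Ventricular Nppb was most like Rrp12 (0.84) and Slmap (0.82). In atria, Nppa was most like Pdrg1 (0.92), and Nppb was like Coq10a (0.84).

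Corin was most like Rmnd1 (r = 0.96) and Aldh9a1 (0.96) in ventricle and Gm7694 (0.98) and Taf1a (0.96) in atria. Furin was most like Rab11fip3 (0.92) and Lrp10 (0.91) in ventricle and Necap2 and Klhl30 (0.98 each) in atria. Npr1 was most like Mcc and Pecam1 (0.94 each) in ventricle, Pecam1 being one of the endothelial markers, and Camk2n1 (0.91) and Chd3 (0.90) in atria. Npr2 was most like Sun2 (0.96) and Slc9a8 (0.94) in ventricle and Lta4h (0.96) and Cdnf (0.95) in atria. Npr3 was most like Bag2 (0.93) and Mllt11 (0.92) in ventricle and Tigd2 (0.84) and Wdr33 (0.81) in atria. In ventricle 10237 genes and in atria 10472 genes were compared.

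Other cell type markers were as follows. The 6 markers of all cardiomyocytes (Tnnt2, Tnni3, Actn2, Myh6, Ttn, Ryr2) summed to 15944 to 16278 TPM in +dox ventricle, 16978 to 19862 TPM in –dox and 20651 to 21846 TPM in +/–dox. In atria the same sums were 21004 to 22638, 23246 to 24774 and 24651 to 26331 TPM. Red blood cell markers summed to 366 to 1147 TPM in +dox ventricle against 1774 to 3908 TPM in –dox and 2254 to 2782 TPM in +/–dox, and to 592 to 1267, 662 to 2753 and 1040 to 1349 TPM in atria.

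Fibroblast markers summed to 595 to 646 TPM in +dox ventricle, 520 to 634 TPM in –dox, 654 to 725 TPM in +/–dox, 641 to 730 TPM with MBNL1, 704 to 983 TPM with MBNL2 and 707 to 907 TPM with MBNL1+MBNL2, and to 1016 to 1249 TPM in +dox atria against 1354 to 1465 TPM in –dox. Mural cell sums were 160 to 210 and 202 to 240 TPM in +dox and –dox ventricle, and macrophage sums were 54.4 to 82.9 and 52.9 to 60.4 TPM. Epicardial markers reached 3.44 TPM in ventricle and 92.2 TPM in –dox atria against 13.7 to 49.6 TPM in +dox atria. B cell sums reached 1.47 TPM, sinoatrial node sums 9.97 TPM, and brown fat sums 42.3 TPM, while lung markers reached 3.22 TPM in –dox ventricle and at most 0.27 TPM in the other groups. The part of these cell types in the members' values was not tested.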

How the data were processed

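RNA from left ventricle and atria (poly(A)-selected, stranded kit, 250 ng input, 150 bp paired-end reads) was sequenced in 36 libraries. The authors mapped reads with STAR 2.7.10b to mm10 with GENCODE M25 and estimated expression with RSEM 1.3.1. They deposited RSEM expected counts per gene symbol, not scaled to library size, and TPM, scaled by length to a common sum per library. Here counts were rounded, filtered with filterByExpr, TMM-normalized and tested in edgeR 4.0.16 (robust quasi-likelihood, 12 groups, R 4.3.3), with Benjamini-Hochberg adjustment, a threshold of 0.05 and, outside the tests between chambers of a change, 1.5-fold. Alternatives were DESeq2 1.42.0, limma 3.58.1 on log2(TPM + 1), other samples in the fit, no filter, the library set, the replicate block and leaving out each library. Groups came from the sample labels. Same-numbered ventricle and atria of a cohort deviated together (correlation 0.163 to 0.804 over the 5000 most expressed genes, median 0.60, 18 pairs). Those of different number gave -0.736 to 0.554 (median -0.44, 36 pairs), which overlaps in part. Deviations within a group cancel out, so the opposite signs of these medians arise in part by construction. In all cohorts but MBNL1+MBNL2, replicate 3 also differed in library set in both chambers. The authors list the same animals of a cohort for both tissues, without replicate numbers, and the number was taken to mark the animal. Within a chamber, numbers shared across cohorts were not taken as pairs, since the cohorts consisted of different animals. Replicates of a group differed beyond counting noise (at least 9.6 chi-square per gene).

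Correlations used 100000 permutations within cohorts. Genes named were the 7 members, the genes called from a fixed list, and the 2 most alike genes per member and chamber, among genes with a mean of at least 5 CPM, of which 1 gene is not reported here. Members, lists and tests were chosen with earlier results of these data known. Positions came from GENCODE M21, in which 53292 of 55291 symbols were found, and promoters from RefSeq. Tests were also run on simulated counts for ventricular –dox against +dox, in which a gene had the same spread in all libraries. That setting could not show how a call depends on unequal spread between the chambers.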

Additional observations from a re-analysis of the deposited data

Results flagged for a closer look

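The change of Furin on removal of dox differed between the chambers by a test of the difference itself. For +/–dox against +dox, the atrial log2 change minus the ventricular one was -0.65 ± 0.15 (edgeR adjusted p = 0.0343), and -0.59 in set A alone. It was past the threshold in 3 of 12 fits without 1 library and in DESeq2 and the animal block. Groups of 3 are too small for a test of outlying samples.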

How the results depend on the processing

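Of 27 differences of members called, 19 stayed called in every alternative run for them, and over all 400 alternative values 351 kept the call, 49 lost it and 0 changed direction. Counts of members called moved as follows, each with the share of all genes called in the same fit. The number of genes behind a share differs by fit, as DESeq2, without the low-count filter, had 33361 against 19231 in the main edgeR fit. Its share is therefore smaller for as many calls, such as 646 genes by DESeq2 and 509 by edgeR for ventricular MBNL1+MBNL2 against +dox. With no fold limit, 5 were called in ventricle for –dox (20.9% of all genes) and 4 for +/–dox (21.8%) against +dox. For the vectors there it was 2 for MBNL1 (8.95%), 1 for MBNL2 (7.43%) and 2 for MBNL1+MBNL2 (8.34%) against +dox, and 1 for MBNL1 against +/–dox (2.67%). In atria it was 5 for –dox (15.9%), 4 for +/–dox (12.6%), 1 for MBNL1 (0.348%) and 1 for MBNL1+MBNL2 (0.686%) against +dox. Against +/–dox the atrial counts were 2 for MBNL1 (4.60%), 3 for MBNL2 (11.0%) and 1 for MBNL1+MBNL2 (6.86%). Between chambers it was 5 in –dox (42.6%) and 6 in +dox (43.6%). DESeq2 (1.94%), RLE normalization (2.54%), 18 libraries of the chamber (1.66%) and the replicate block (1.77%) each called 1 for ventricular MBNL1+MBNL2 against +dox. Against +/–dox, the replicate block (0.207%), no low-count filter (0.231%), 18 libraries (0.196%) and 6 libraries (0.231%) called 0 for ventricular MBNL1+MBNL2, and DESeq2 (1.33%), library set as a term (1.92%), limma (1.37%) and set A (2.20%) called 2 for MBNL2. Set A, an alternative chosen after seeing the data, also called 1 for ventricular MBNL1 against +/–dox (203 of 19231 genes) and 2 for atrial –dox against +dox (4.65%). For atrial MBNL1 against +/–dox set A (1.27%), limma (1.19%) and 6 libraries (1.84%) called 1. Limma called 1 for atrial MBNL1+MBNL2 against +dox (0.270%) and 1 against +/–dox (1.72%), and 7 between chambers in –dox (29.9%). For the difference of –dox changes between chambers, DESeq2 (1.28%), set A (1.55%) and the replicate block (3.08%) called 1.

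Leaving out 1 library gave ranges. Against +dox these were 2 to 4 in ventricle for –dox (5.76% to 7.71% of all genes), 0 to 1 for MBNL1 (1.68% to 3.92%) and 0 to 2 for MBNL1+MBNL2 (1.38% to 3.65%), and in atria 2 to 4 for –dox (3.65% to 5.36%) and 2 to 3 for +/–dox (2.55% to 4.16%). Against +/–dox they were 0 to 1 for ventricular MBNL1 (0.312% to 1.34%), 1 to 2 for MBNL2 (0.811% to 1.45%) and 0 to 2 for MBNL1+MBNL2 (0.208% to 1.44%), and 0 to 1 for atrial MBNL1 (0.728% to 1.03%) and MBNL1+MBNL2 (1.04% to 2.29%). They were 0 to 1 for ventricular MBNL1+MBNL2 against MBNL2 (0.0052% to 0.0624%). Between chambers they were 3 to 4 in –dox (23.0% to 24.4%), 4 to 5 in +dox (23.3% to 24.3%), and 0 to 1 for the –dox (0.551% to 1.12%) and +/–dox changes (0.218% to 0.775%).

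Within a chamber, same-numbered libraries of different cohorts correlated from -0.301 to 0.787 in their deviations from cohort means, with medians by replicate number of 0.106 to 0.524 in ventricle and 0.369 to 0.682 in atria, highest for replicate 3, which in 5 cohorts shares set B. They were not taken as pairs, because the cohorts consisted of different animals. Besides the counts above, the replicate block called atrial Nppa (adjusted p = 0.00624 for –dox and 0.00552 for +/–dox) and lost atrial Npr2 in both (log2 0.57 each) and ventricular Npr3 for MBNL1+MBNL2 against +/–dox (adjusted p = 0.173).

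Of the correlations, Nppa with Nppb in ventricle was 0.65 on log2(TPM + 1) and 0.59 without the 2 farthest libraries, and Nppa between chambers 0.52 and 0.62, all with adjusted p above 0.05. Atrial markers with ventricular Nppa gave 0.70 without the 2 farthest, likewise above 0.05, and Nppb between chambers turned to -0.044. Without ventricular MBNL1 replicate 1 those involving ventricle ran from 0.13 to 0.79.

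TPM moved the median of all genes against TMM by 0.14 (log2) for ventricular MBNL2 against +dox, 0.15 against +/–dox, -0.10 for ventricular MBNL1 against MBNL2 and 0.11 for atrial MBNL1+MBNL2 against +/–dox. The causes of these moves were not tested.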
